A study of Mus musculus with 6 samples.

Results

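The genes of the YAP/TAZ-TEAD pathway were followed in mouse ATDC5 cells stimulated with IL-1β, with and without the inhibitor NP-G2-044. They are 10 of the 16880 genes listed in the expression table: the coactivators Yap1 and Wwtr1 (the gene of TAZ), their DNA-binding partner Tead1, and the target genes Ankrd1, Amotl2, Lats2, Ajuba, Crim1, Ccn1 (also called Cyr61) and Ccn2 (also called Ctgf). They were chosen by symbol for their known place in the pathway, with earlier results of these data known. All 10 had enough reads to be tested. With the inhibitor, Wwtr1 rose 1.996-fold while Yap1 fell by 0.30 on the log2 scale, so that Wwtr1 passed from 31.7% to 53.5% of the summed level of the coactivators. The targets moved apart from each other. Amotl2 was 3.29-fold lower and Ccn2 3.98-fold lower, the latter from only 8 to 50 reads per library. Ankrd1 was 2.26-fold higher, and Ccn1, like Ccn2 a standard readout of the pathway, did not pass the test.

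YAP and TAZ are coactivators that carry no DNA-binding domain of their own. In the Hippo pathway, MST kinases activate LATS kinases, and these phosphorylate YAP and TAZ, which are then held in the cytoplasm or degraded. Unphosphorylated YAP and TAZ enter the nucleus and bind TEAD factors at the promoters and enhancers of their targets. Tension on the actin cytoskeleton, cell spreading and a stiff matrix are known to favour nuclear YAP and TAZ, and several targets encode proteins that act back on the pathway. RNA levels, as measured here, give neither phosphorylation nor the place of the proteins in the cell.

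The IL group held 3 libraries of cells stimulated with 10 ng/mL IL-1β, an inflammatory cytokine. The ILN group held 3 libraries of cells given the same dose of IL-1β together with NP-G2-044 at 10 μM, a small molecule inhibitor of the actin-bundling protein fascin, FSCN1, and treatment lasted 24 h according to the methods. IL-1β was common to both groups, and a DMSO group was not analysed here, so no value below is an effect of IL-1β. The titles name the inhibitor NP-G2-044 and the treatment label gives NP-G2-047. The labels name ATDC5, a chondrogenic line, as the source, and the study speaks of chondrocytes and of biological replicates. The labels do not say whether the libraries came from separate cultures, and if they did not, the p-values measure technical spread alone.

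The libraries held 16615831 to 16878162 reads in the IL group and 17529836 to 17735850 in the ILN group. Most of the listed chondrocyte markers were near the floor, Col2a1 among them. Of 16 such markers 10 were listed, 6 of these stayed below 0.5 TPM in every library, and Matn1 was at 0. The summed level of the listed markers was 22.4 to 23.3 TPM in IL and 17.6 to 18.4 TPM in ILN, most of it Sox9, Sox5 and Col11a2. These moved apart. Sox9 rose from a mean of 6.44 to 11.4 TPM, while Sox5 fell from 10.3 to 2.27 TPM and Col11a2 from 5.01 to 3.43 TPM. All 8 fibroblast markers were listed, with Thy1 at 0, and their summed level was 7572 to 7796 TPM in IL and 2366 to 2474 TPM in ILN. S100a4, Vim and Col1a2 made up most of that sum, and Pdgfra went the other way, from 2.36 to 8.69 TPM. Markers of muscle, endothelium and epithelium summed to at most 0.55 TPM in any library. Macrophage markers summed to 10.5 to 13.5 TPM in IL and 4.68 to 5.36 TPM in ILN, nearly all of it Cd14, and Ptprc was at 0. Osteoblast markers gave 2.89 to 4.59 TPM against 0.38 to 0.53, with Dmp1 near 0, and adipocyte markers 2.87 to 5.09 against 0.36 to 0.74, with Plin1 near 0. The part of the fibroblast marker difference in the results below was not tested. In RNA from whole cultures, fewer cells of a kind and less RNA per cell cannot be told apart.

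Levels are given in TPM, a unit that accounts for gene length and library size. Changes are log2 fold changes of ILN over IL from a fit to the read counts of all genes, and are positive where ILN was higher. A gene was called where the quasi-likelihood test of edgeR, adjusted by Benjamini-Hochberg over the 11983 genes tested, gave a value below 0.05. A stricter call also asked for a log2 fold change above 1 in size. By the plain call 9 of the 10 genes differed, 3 higher and 6 lower, in a comparison in which 80% of all tested genes were called, 40.2% higher and 39.8% lower. Past both cutoffs stood 1 higher gene (Ankrd1) and 2 lower genes (Amotl2 and Ccn2), against 16.6% of all tested genes, 6.48% higher and 10.1% lower. The groups did not overlap in TPM for 8 of the 10 genes, against 79.4% of all tested genes (38% with ILN above and 41.4% with ILN below). ILN lay above in 2 of them and below in 6. The shares called and without overlap lay near those of the whole table, and with 10 genes the other counts are given as a description. The median log2 fold change was -0.22 over the 10 genes and 0.00 over all genes tested.

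**Figure D1:**
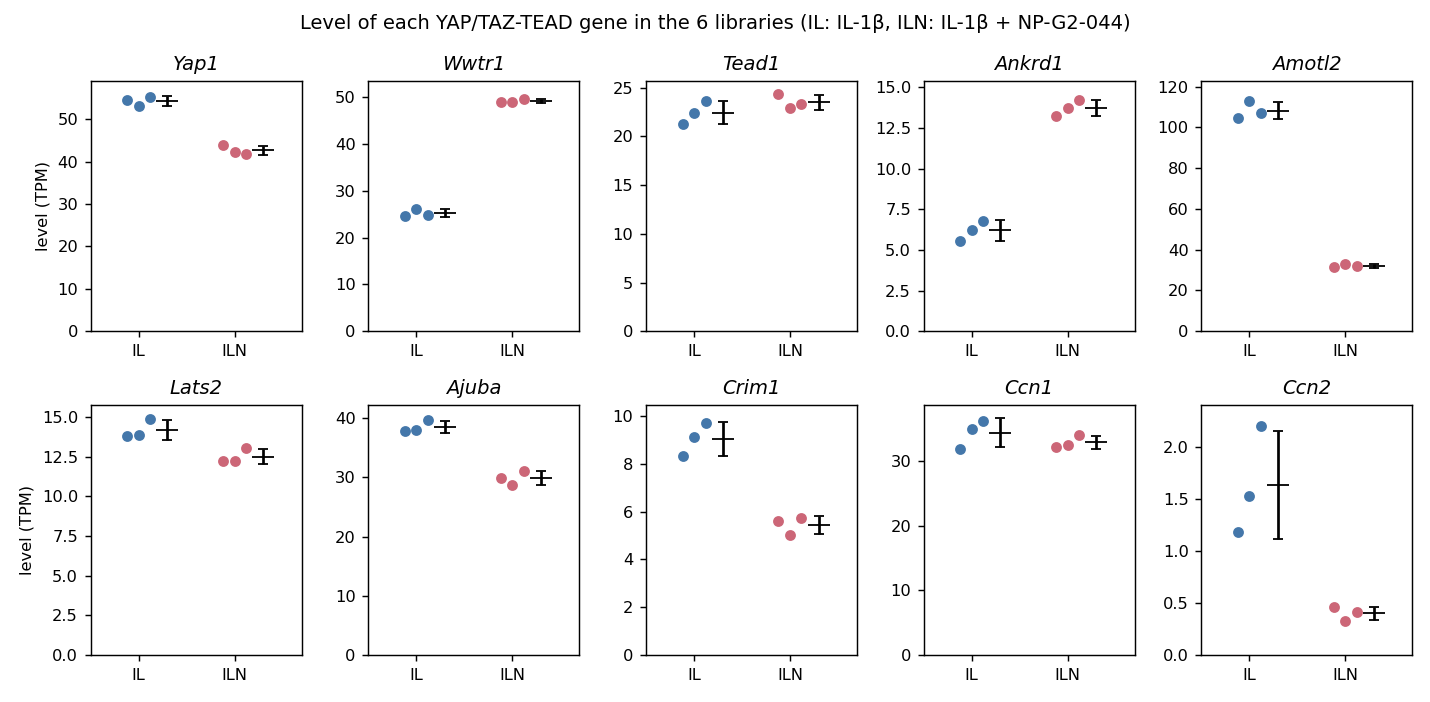
Level in TPM (vertical axes, from 0) of each of the 10 genes in the 3 IL and the 3 ILN libraries, with a point per library and the mean and SD beside the points. Points of the groups lie apart for all genes but Tead1 and Ccn1, and Wwtr1 and Ankrd1 are the genes with clearly higher points in ILN.

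Yap1 (Entrez gene 22601, chr9:7931999-8004638 on the minus strand of GRCm38) encodes the founding coactivator of the pathway. Its level was 54.67, 53.08 and 55.34 TPM in the IL libraries and 43.87, 42.39 and 41.76 TPM in the ILN libraries. All ILN libraries lay below all IL libraries. The mean was 54.4 ± 1.16 TPM in IL and 42.7 ± 1.08 TPM in ILN (SD, n = 3 in each group). Yap1 fell by 0.30 on the log2 scale (SE 0.0340, 95% interval -0.37 to -0.24, Benjamini-Hochberg adjusted p = 1.46e-11, edgeR quasi-likelihood).

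Wwtr1 (Entrez gene 97064, chr3:57455644-57575910, minus strand) encodes TAZ, the paralog of YAP that shares its TEAD-binding and WW domains. It stood at 24.69, 26.12 and 24.83 TPM in IL and at 48.97, 48.88 and 49.64 TPM in ILN. The ILN values were far above the IL values, and both groups were tight. The log2 fold change was 0.997 (SE 0.0356, 95% interval 0.93 to 1.07, Benjamini-Hochberg adjusted p = 3.27e-31, edgeR quasi-likelihood), so that Wwtr1 was called higher and lay just under the cutoff of 1 for the stricter call. It passed that cutoff when 1 of 3 particular libraries was left out (IL 2, ILN 1 or ILN 2) or when genes of few reads were not filtered out, and its log2 fold change without a library ranged from 0.98 to 1.01.

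The coactivators thus changed order. Within a library, where no scaling between libraries enters, the ratio of Wwtr1 to Yap1 in TPM was 0.452, 0.492 and 0.449 in IL and 1.12, 1.15 and 1.19 in ILN. Every IL library held less Wwtr1 than Yap1 and every ILN library held more. The mean ratio passed from 0.464 ± 0.0243 to 1.15 ± 0.0362 (SD, n = 3 each), a difference of 1.31 on the log2 scale (exact permutation test, two-sided, p = 0.1, the smallest p that 3 against 3 libraries allow). The share of Wwtr1 in the sum was 31.7% ± 1.12 in IL and 53.5% ± 0.782 in ILN. The sum itself was 79.6 ± 0.520 TPM in IL and 91.8 ± 0.871 TPM in ILN, without overlap (exact permutation p = 0.1, two-sided).

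Tead1 (Entrez gene 21676, chr7:112679356-112906784, plus strand) encodes a DNA-binding factor to which YAP and TAZ attach. Its level was 21.32, 22.43 and 23.63 TPM in IL and 24.32, 22.88 and 23.29 TPM in ILN. The groups overlapped, with IL 3 above ILN 2 and ILN 3. The mean was 22.5 ± 1.16 TPM against 23.5 ± 0.742 TPM, and the log2 fold change was 0.10 (SE 0.0337, 95% interval 0.03 to 0.17, Benjamini-Hochberg adjusted p = 0.00634, edgeR quasi-likelihood). The call was lost with upper-quartile scaling (Benjamini-Hochberg adjusted p = 0.202, edgeR quasi-likelihood), with limma on log2 TPM (0.265) and without IL 1 (0.0657, edgeR quasi-likelihood).

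The other TEAD factors bind the same motif. Tead2 was by far the most abundant, at 165.7 to 174.5 TPM in IL and 175.4 to 180.9 TPM in ILN. Its log2 fold change was 0.10 (SE 0.0300, Benjamini-Hochberg adjusted p = 0.00287, edgeR quasi-likelihood). That change is as small as the change of Tead1, and the Tead2 call under other scalings is not given here. Tead3 fell by 0.60 (SE 0.0713) from 15.5 to 15.8 TPM in IL to 9.82 to 10.4 TPM in ILN (Benjamini-Hochberg adjusted p = 7.77e-11, edgeR quasi-likelihood). Tead4, the least abundant, rose by 1.23 (SE 0.113, Benjamini-Hochberg adjusted p = 2.56e-14, edgeR quasi-likelihood) from 2.24 to 3.05 TPM to 5.66 to 6.33 TPM. Members of the family thus moved in opposite directions. Their sum was 210.6 ± 3.95 TPM in IL and 217.8 ± 3.11 TPM in ILN, and the groups overlapped (exact permutation p = 0.2, two-sided). Tead2 supplied 80.7% ± 0.825 of that sum in IL and 81.8% ± 0.259 in ILN. The share of Tead1 was 10.7% ± 0.619 and 10.8% ± 0.236, with overlapping groups (exact permutation p = 0.8, two-sided, adjusted 0.8 over 4 paralogs). Tead3 passed from 7.41% ± 0.154 to 4.62% ± 0.166 and Tead4 from 1.25% ± 0.200 to 2.76% ± 0.171. For Tead2, Tead3 and Tead4 the shares did not overlap between the groups (exact permutation p = 0.1 each, adjusted 0.133). The difference for Tead2, 1.16 percentage points, was 0.46 from rounded counts in place of TPM (exact permutation, adjusted p = 0.9) and 0.69 without IL 3.

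**Figure D2:**
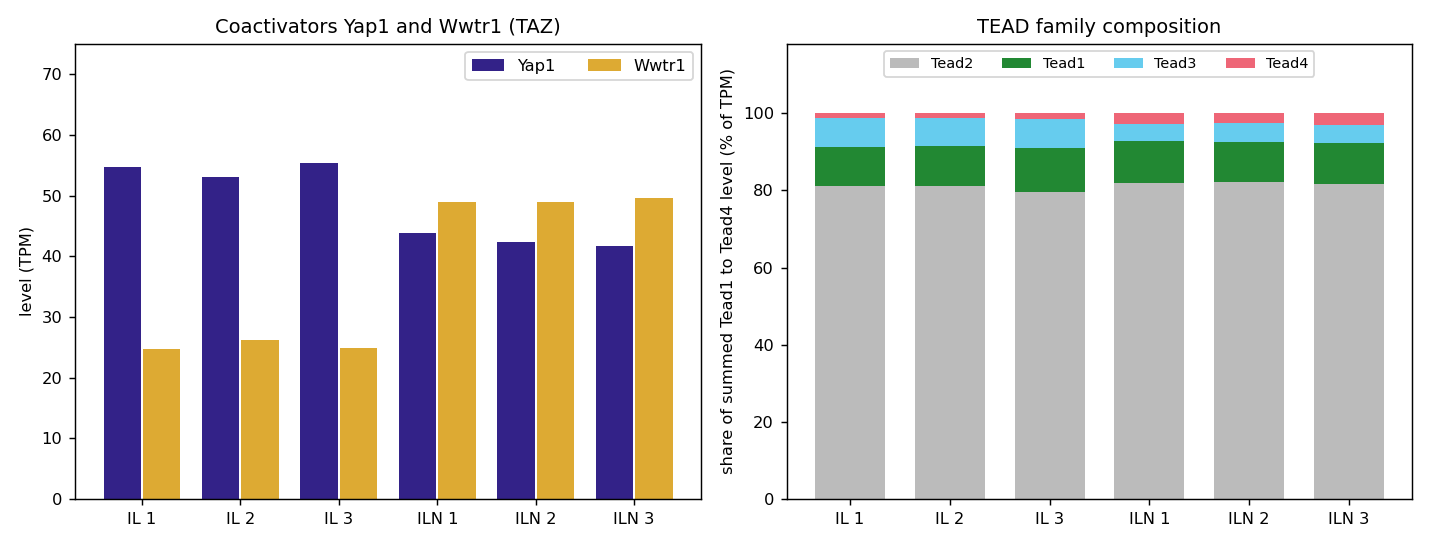
Left, level in TPM of Yap1 and Wwtr1 in each of the 6 libraries. Right, share of Tead1, Tead2, Tead3 and Tead4 in their summed TPM in each library, where the Tead2 share is near 81% throughout, the Tead3 band is thinner and the Tead4 band thicker in the ILN libraries.

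Of the 7 target genes, 1 rose (Ankrd1), 5 fell (Amotl2, Lats2, Ajuba, Crim1 and Ccn2) and 1 was not called (Ccn1), with a median log2 fold change of -0.33. Of all tested genes 40.2% were higher and 39.8% lower by the same call. They fall into plain targets and targets that also act on the pathway, and these are taken in turn.

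Ankrd1 (Entrez gene 107765, chr19:36111965-36119844, minus strand) encodes an ankyrin repeat protein of the nucleus and the sarcomere and is a standard YAP/TAZ readout. It stood at 5.55, 6.23 and 6.80 TPM in IL and at 13.21, 13.75 and 14.20 TPM in ILN, from 89 to 108 reads per IL library and 221 to 243 per ILN library. The lowest ILN library stood well above the highest IL library. The mean passed from 6.19 ± 0.626 to 13.7 ± 0.496 TPM, and Ankrd1 rose by 1.18 on the log2 scale (SE 0.101, Benjamini-Hochberg adjusted p = 2.00e-15, edgeR quasi-likelihood).

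Ccn1 (Entrez gene 16007, chr3:145646971-145649985, minus strand) encodes a secreted matricellular protein that binds integrins. Its level was 31.87, 35.02 and 36.24 TPM in IL and 32.20, 32.46 and 34.10 TPM in ILN. The ILN values all lay inside the IL range. The means were 34.4 ± 2.25 and 32.9 ± 1.03 TPM, and the log2 fold change was -0.03 (SE 0.0526, Benjamini-Hochberg adjusted p = 0.592, edgeR quasi-likelihood). The 95% interval of that difference ran from -0.14 to 0.07.

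Ccn2 (Entrez gene 14219, chr10:24595442-24598683, plus strand) encodes connective tissue growth factor, a relative of Ccn1 and a matricellular protein of cartilage and fibrous tissue. It was the lowest of the 10 genes, at 1.18, 1.53 and 2.20 TPM in IL and 0.46, 0.33 and 0.41 TPM in ILN. These levels rest on 27, 34 and 50 reads in IL and on 11, 8 and 10 reads in ILN. Every ILN library was below every IL library, and the IL libraries spread more, in proportion to their mean, than for any other of the genes. Ccn2 fell by 1.99 on the log2 scale (SE 0.283, 95% interval -2.56 to -1.43, Benjamini-Hochberg adjusted p = 1.04e-08, edgeR quasi-likelihood). From 111 reads against 29, the ratio of IL to ILN scaled by the read totals was 4.03, with an exact binomial (Clopper-Pearson) 95% interval of 2.66 to 6.29 that covers counting error only. With each library left out in turn the log2 fold change ranged from -2.18 to -1.72. A gene on the opposite strand, Gm15270, shares 665 of the 2861 exon bases of Ccn2, and counting by strand is not stated.

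Crim1 (Entrez gene 50766, chr17:78200233-78376592, plus strand) encodes a transmembrane protein with cysteine-rich repeats that binds BMPs. It stood at 8.31, 9.11 and 9.70 TPM in IL and at 5.59, 5.01 and 5.74 TPM in ILN. The highest ILN library was well below the lowest IL library. Crim1 fell by 0.72 on the log2 scale (SE 0.0688, Benjamini-Hochberg adjusted p = 1.47e-13, edgeR quasi-likelihood), from 9.04 ± 0.698 to 5.45 ± 0.386 TPM. It shares 123 exon bases with Fez2 on the opposite strand, whose own log2 fold change was 0.34.

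Amotl2 (Entrez gene 56332, chr9:102717091-102733418, plus strand) encodes angiomotin-like 2, which binds YAP and actin filaments at cell junctions and keeps YAP out of the nucleus. Its level was 104.47, 112.84 and 107.22 TPM in IL and 31.27, 33.21 and 31.81 TPM in ILN. It was the most abundant of the 10 genes in IL, and all ILN libraries lay far below all IL libraries. The mean passed from 108.2 ± 4.27 to 32.1 ± 1.00 TPM, 30.4% of the IL level in the fit, and Amotl2 fell by 1.72 on the log2 scale (SE 0.0335, 95% interval -1.79 to -1.65, Benjamini-Hochberg adjusted p = 2.98e-43, edgeR quasi-likelihood). It was the only gene besides Ccn2 among the 10 to pass a test against a fold change of 2 (adjusted p = 1.48e-26 for Amotl2 and 0.00121 for Ccn2 in edgeR's glmTreat, and 0.0986 for Ankrd1).

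Ajuba (Entrez gene 16475, chr14:54567469-54577661, minus strand) encodes a LIM-domain protein that binds LATS kinases at tensed junctions and restrains them. It stood at 37.90, 38.02 and 39.74 TPM in IL and at 29.97, 28.78 and 31.18 TPM in ILN. The groups lay apart by more than the range of either. Ajuba fell by 0.33 on the log2 scale (SE 0.0409, Benjamini-Hochberg adjusted p = 3.01e-10, edgeR quasi-likelihood).

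Lats2 (Entrez gene 50523, chr14:57689662-57746212, minus strand) encodes a kinase that phosphorylates YAP and TAZ, and its transcription is itself raised by them. Its level was 13.78, 13.89 and 14.88 TPM in IL and 12.20, 12.23 and 13.03 TPM in ILN. The groups did not overlap, but the gap between them was smaller than the range within either. Lats2 fell by 0.14 on the log2 scale (SE 0.0497, 95% interval -0.24 to -0.04, Benjamini-Hochberg adjusted p = 0.00797, edgeR quasi-likelihood), and DESeq2 did not call it (adjusted p = 0.0627). The value is uncertain for a further reason. Lats2 shares 2955 of its 6971 exon bases with Gm49361 on the same strand, which the table does not list, and its counts were not whole numbers in 3 libraries. Lats1, its paralog, rose by 0.39 (SE 0.0338, Benjamini-Hochberg adjusted p = 4.54e-15, edgeR quasi-likelihood), from 26.0 to 28.1 TPM in IL to 33.4 to 36.3 TPM in ILN.

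**Figure D3:**
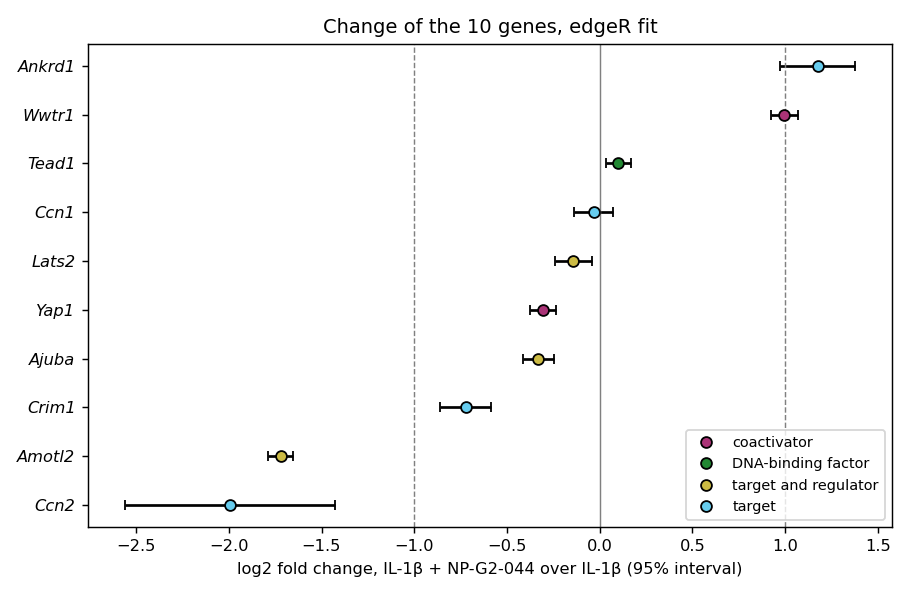
Log2 fold change of ILN over IL for the 10 genes with 95% intervals from the edgeR fit, coloured by role, with dashed lines at the cutoffs of 1 in size. Ankrd1 and Wwtr1 lie at the right near 1, Amotl2 and Ccn2 at the far left, and the interval of Ccn1 includes 0.

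Set against Tead1 in the same library, all 7 targets had groups that did not overlap. The share of all genes with such ratios apart was not computed, and by TPM alone 79.4% of all tested genes did not overlap. The log2 ratio to Tead1 differed between ILN and IL by 1.09 for Ankrd1, -0.13 for Ccn1, -0.25 for Lats2, -0.43 for Ajuba, -0.80 for Crim1, -1.82 for Amotl2 and -2.06 for Ccn2. Each of these gave p = 0.1 in the exact permutation test (two-sided, adjusted 0.1 over the 7 ratios), the floor of this design, so that the test cannot rank them. The ratios share the Tead1 values of a library, and the ratio of Ccn1 was apart between groups although its level was not. The summed level of the 7 targets was 212.2 ± 7.88 TPM in IL and 127.0 ± 2.996 TPM in ILN (exact permutation p = 0.1, two-sided), and most of that difference was Amotl2.

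The order of the levels differed between the groups. In IL it ran from Amotl2 over Yap1, Ajuba, Ccn1, Wwtr1, Tead1, Lats2, Crim1 and Ankrd1 to Ccn2, and no neighbours in that order had overlapping ranges. In ILN it ran from Wwtr1 over Yap1, Ccn1, Amotl2, Ajuba, Tead1, Ankrd1, Lats2 and Crim1 to Ccn2, and Ccn1 and Amotl2 were the only neighbours whose ranges overlapped. Wwtr1 moved from the fifth place to the highest and Amotl2 from the highest to the fourth.

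The genes whose profile over the 6 libraries lay nearest were sought among tested genes with a mean of at least 10 TPM, by the Euclidean distance of log2 CPM (counts scaled to library size) after each gene's mean was subtracted. For Yap1 the nearest of 8334 genes were Tssc4 (distance 0.0371), Anxa5 (0.0385) and Elmo2 (0.0419). For Ccn2, which had the largest log2 fold change in size, the nearest of 8335 were Tiam2 (0.521), Aspm (0.561) and Peg10 (0.562), farther away than those of Yap1. The difference between the groups enters this distance, and many genes share such a step. The neighbours of Ccn2 had log2 fold changes of -1.81, -1.89 and -1.96, near its own -1.99. Ccn2 had 8 to 50 reads per library and a mean of 1.64 TPM in IL, below the 10 TPM asked of the candidates. The part of counting scatter in its larger distances was not tested.

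The promoters are shown because the 8 genes with a promoter window in the RefSeq table used here hold the same short motif while their levels moved in both directions. A window spans 250 bases before to 50 bases after an annotated start, on GRCm38.p6. These genes have 10 windows, since Wwtr1 and Lats2 have a pair of starts each among the windows used here. The TEAD motif was searched as GGAATG on both strands. It was found in 9 of the 10 windows and in at least 1 window of all 8 genes, with 11 matches, against 14.7% of all 32851 windows in the table and 11.9% of the 12355 windows of tested genes. The exception was the window of a Lats2 start. The windows of Wwtr1 overlap and hold the same site, which was counted in each. A match is a run of letters and not evidence of binding, and the genes were chosen for their known place in the pathway, 6 of the 8 as targets. The stretches of 30 bases around the motif are printed 5′ to 3′ in the direction that reads GGAATG, with the motif in capitals and the strand of the printed letters after the coordinates.
Yap1, chr9:8004720-8004749, minus: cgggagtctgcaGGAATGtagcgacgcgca
Wwtr1, chr3:57576029-57576058, minus: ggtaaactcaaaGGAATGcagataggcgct
Ankrd1 distal, chr19:36120037-36120066, minus: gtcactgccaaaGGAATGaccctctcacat
Ankrd1 proximal, chr19:36119950-36119979, minus: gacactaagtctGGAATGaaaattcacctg
Amotl2, chr9:102717727-102717756, minus: gctgctatgccaGGAATGtgagagtttcag
Lats2, chr14:57746102-57746131, minus: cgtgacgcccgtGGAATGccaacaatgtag
Ajuba distal, chr14:54577830-54577859, plus: gaggggcactgtGGAATGtatccatcaacg
Ajuba proximal, chr14:54577808-54577837, plus: ttgtttacagttGGAATGcgcggaggggca
Crim1, chr17:78200157-78200186, plus: agggcgggggggGGAATGaggtaggatggg
Ccn1, chr3:145650071-145650100, plus: tcaaacatctcaGGAATGttggttggcgcg

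Counted from the annotated start, the motif began at -141 in Yap1, at -170 or -136 in Wwtr1 depending on the start, at -210 and -123 in Ankrd1, at -79 in Crim1 and at 5 after a Lats2 start, all on the strand of the gene. It lay on the opposite strand in Amotl2 (-65), Ajuba (-186 and -164) and Ccn1 (-103). The Amotl2 window, chr9:102717554-102717853, belongs to a start inside the gene. The window and its match lie downstream of the first base of Amotl2 given above, chr9:102717091. The genes with a pair of matches, Ankrd1 and Ajuba, moved in opposite directions, by 1.18 and -0.33 on the log2 scale. No window of these genes held the AP-1 motif TGANTCA, which 7.81% of all windows hold, or the CArG box of serum response factor, which 1.63% hold. No match says only that these letters are not in these windows.

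**Figure D4:**
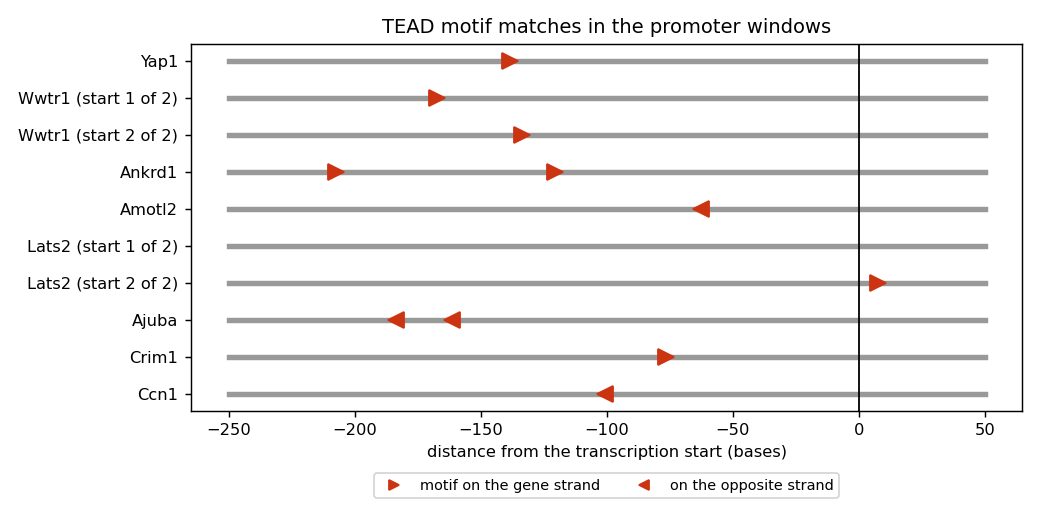
Position of the TEAD motif in the 10 promoter windows, in bases from the annotated transcription start, with arrows pointing by strand. Matches lie between positions -210 and 5, and the window of a Lats2 start has none.

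The full 250 bases upstream of the start are given for the target that rose, for a target that fell with the same number of matches, and for the target that was not called. Each is on the strand of its gene, the minus strand, with every match in capitals (CATTCC is GGAATG read on the other strand).
Ankrd1, chr19:36119845-36120094: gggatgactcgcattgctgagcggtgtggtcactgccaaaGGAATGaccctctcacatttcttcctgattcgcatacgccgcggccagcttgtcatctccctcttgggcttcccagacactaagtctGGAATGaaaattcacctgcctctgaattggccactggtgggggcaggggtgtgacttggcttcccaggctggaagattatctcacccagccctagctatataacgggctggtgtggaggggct
Ajuba, chr14:54577662-54577911: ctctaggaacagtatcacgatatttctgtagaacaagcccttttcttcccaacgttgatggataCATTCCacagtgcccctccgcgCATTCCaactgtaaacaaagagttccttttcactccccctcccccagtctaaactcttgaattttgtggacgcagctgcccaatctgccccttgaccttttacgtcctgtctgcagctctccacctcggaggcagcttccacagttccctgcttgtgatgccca
Ccn1, chr3:145649986-145650235: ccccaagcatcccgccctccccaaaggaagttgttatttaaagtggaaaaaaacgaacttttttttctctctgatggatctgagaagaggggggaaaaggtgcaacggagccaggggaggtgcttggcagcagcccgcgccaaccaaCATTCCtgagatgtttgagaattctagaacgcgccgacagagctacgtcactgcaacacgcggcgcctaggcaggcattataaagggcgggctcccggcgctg

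The rest of the pathway was read from 5 hand-written lists, made with earlier results of these data known. They hold 61 further genes, each counted once, of which 59 were listed and 52 tested. Of these 52 genes 22 rose and 25 fell, 6 and 11 past both cutoffs, and the median log2 fold change was -0.07. In all tested genes 40.2% were called higher and 39.8% lower, and 6.48% and 10.1% past both cutoffs. These shares stand beside the counts of each list below. The same caution on the fibroblast markers, whose summed level was lower in ILN, applies to these lists.

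Of 16 upstream kinases and their activators 15 were tested, 9 rose, 4 fell and 2 were not called, with a median of 0.28. By the same call 40.2% of all tested genes were higher and 39.8% lower. Wwc1, which encodes KIBRA, an activator of LATS kinases, was at 7.48 to 8.41 TPM in IL and 20.2 to 21.6 TPM in ILN, and it rose by 1.46 (SE 0.0556, Benjamini-Hochberg adjusted p = 6.86e-30, edgeR quasi-likelihood). Fat4, an atypical cadherin that feeds into the pathway, was at 2.45 to 2.81 TPM in IL and 0.13 to 0.20 TPM in ILN, and it fell by 3.92 (SE 0.116, Benjamini-Hochberg adjusted p = 5.83e-35, edgeR quasi-likelihood). Chosen after their values were seen, the MST kinase genes Stk3 and Stk4 rose by 0.28 and 0.60 and Nf2, which encodes the scaffold merlin, by 0.64. Chosen in the same way, Sav1, the partner of the MST kinases, fell by 0.40 and Frmd6 by 0.71. Dchs1, the ligand of Fat4, had too few reads to be tested.

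Among 8 genes that bind YAP and TAZ or act on their turnover, 3 rose, 3 fell and 2 were not called, with a median of -0.02. Amot, which encodes angiomotin, was at 22.4 to 25.8 TPM in IL and 11.4 to 12.4 TPM in ILN, and it fell by 1.03 (SE 0.0438, Benjamini-Hochberg adjusted p = 2.52e-23, edgeR quasi-likelihood). Amotl1, chosen after its values were seen, rose by 0.80 (SE 0.0309) from 25.01 to 27.25 TPM to 44.76 to 45.88 TPM. The angiomotin family thus parted, with Amotl2 and Amot lower and Amotl1 higher in every ILN library.

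The list of other TEADs and Vestigial-like cofactors had 7 genes, of which Vgll1 and Vgll3 were not listed and Vgll2 was not tested. Of the 4 tested, Tead2 (by 0.10 only) and Tead4 rose and Tead3 and Vgll4 fell, with a median of -0.25. Vgll4, a cofactor that competes with YAP and TAZ for TEAD, was at 106.7 to 109.7 TPM in IL and 33.9 to 38.3 TPM in ILN, and it fell by 1.58 (SE 0.0370, Benjamini-Hochberg adjusted p = 1.35e-39, edgeR quasi-likelihood).

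A signature of 16 further targets held 13 tested genes, of which 4 rose, 8 fell and 1 was not called, with a median of -0.27. The changes were wide on both sides. Gadd45a, a stress gene of growth arrest, was at 56.0 to 61.3 TPM in IL and 631.3 to 659.5 TPM in ILN, 11.1-fold higher (log2 fold change 3.47, SE 0.0377, Benjamini-Hochberg adjusted p = 5.25e-55, edgeR quasi-likelihood). F3, which encodes tissue factor, rose by 1.08 (SE 0.0871) from 7.74 to 8.07 TPM to 16.2 to 16.9 TPM. Igfbp3, which binds insulin-like growth factors, was at 910.9 to 1011 TPM in IL and 8.44 to 10.1 TPM in ILN, 101.9-fold lower (log2 fold change -6.67, SE 0.0595, Benjamini-Hochberg adjusted p = 1.68e-23, edgeR quasi-likelihood). Ccdc80, a matrix protein gene, fell by 3.94 (SE 0.111). Nt5e, Nuak2 and Rbms3 had too few reads to be tested.

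Of 15 other published targets 13 were tested, and 5 rose and 8 fell, with a median of -0.19. Anxa3, an annexin gene, rose by 1.24 (SE 0.0327) from 106.2 to 114.7 TPM in IL to 249.3 to 258.0 TPM in ILN, and Inhba, which encodes the activin A subunit, rose by 1.15 (SE 0.0364) from 15.8 to 16.2 TPM to 34.5 to 35.3 TPM. Thbs1, which encodes thrombospondin 1, was at 177.4 to 199.9 TPM in IL and 7.20 to 7.67 TPM in ILN, 24.97-fold lower (log2 fold change -4.64, SE 0.0410, Benjamini-Hochberg adjusted p = 4.67e-52, edgeR quasi-likelihood). Fstl1, a secreted glycoprotein gene, fell by 1.61 (SE 0.0306) and Birc5, which encodes survivin and is expressed in dividing cells, by 1.38 (SE 0.0363). Edn1 and Areg had too few reads to be tested. Targets of the same pathway thus lay on both sides of 0 in both lists, as they did among the 7 target genes followed in full.

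**Figure D5:**
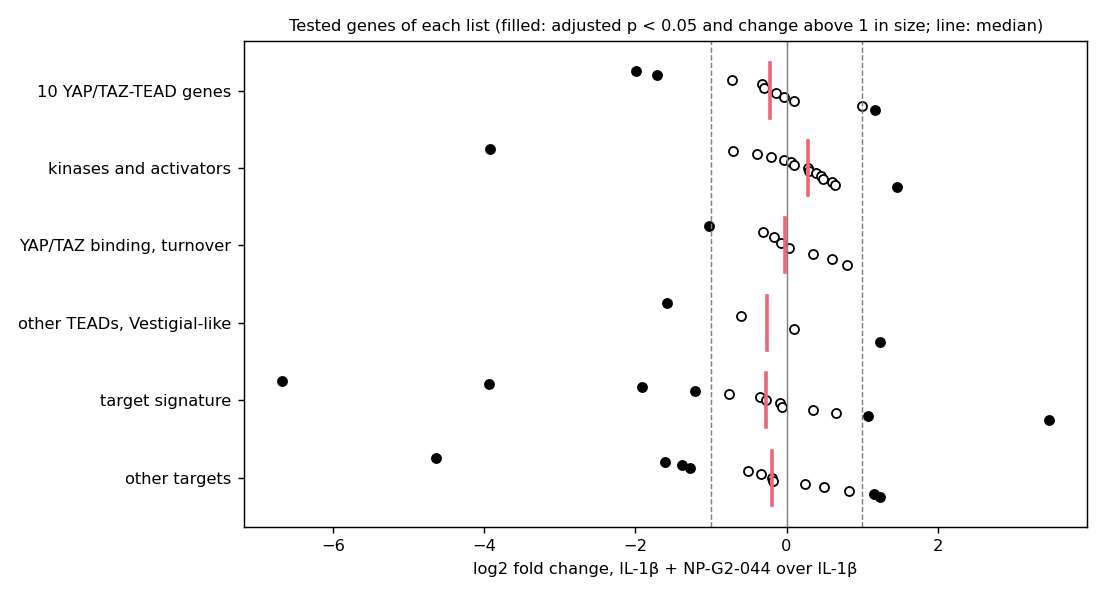
Log2 fold change of ILN over IL of every tested gene in the 10 pathway genes and in the 5 further lists, 1 point per gene, filled where a gene passed both cutoffs, with the median of each list as a line. Each list holds genes on both sides of 0, and the largest falls are in the target lists (Igfbp3 at -6.67 and Thbs1 at -4.64).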

How the data were processed

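RNA of 6 libraries (3 IL, 3 ILN) was compared, with groups and replicate numbers from the sample labels. The authors deposited an estimated count per gene and library, which is not normalized, with TPM and FPKM. The deposited means per group entered no step, and FPKM only an alternative for ratios and shares. The submitters' processing notes name cutadapt, HISAT2 2.0, StringTie and mm10, with no role. For the counting tool, the annotation and the gene lengths, nothing is given in the sources used here. In each library 10.2% to 11.1% of the deposited counts were not whole, and all were rounded. Reads shared between overlapping genes may have been divided.

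Counts of 11983 genes that passed filterByExpr of edgeR 4.0.16 (R 4.3.3, minimum count 10) were scaled with TMM (factors 0.9975 to 1.002) and tested with the robust quasi-likelihood fit, with Benjamini-Hochberg adjustment over all of them and no covariates. The cutoffs of 0.05 and 1 are those of the study's methods. Each SE was derived from the F statistic of the fit. The steps were run on simulated counts in which few genes changed. That run cannot check the scaling in a comparison such as this one, where 80% of tested genes were called. Over genes with at least 60 reads, squared differences between libraries of a group were 1.54 to 2.39 times sampling noise. Each library was counted as 1 replicate, but this spread does not show that the libraries came from separate cultures. Ratios and shares of TPM were compared by exact permutation of the 6 libraries (scipy 1.17.1).

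The 10 genes and all lists were chosen with earlier results of these data known. Stk3, Stk4, Nf2, Sav1, Frmd6 and Amotl1 are named outside the rule for naming genes, after their values were seen. By that rule, named beyond the 10 genes are, of each list, up to 3 largest rises and falls past both cutoffs without overlap. It also names the other Tead genes, Lats1, and the 3 nearest profiles of Yap1 and Ccn2. A gene that this rule names is not reported here. Gene positions and promoter windows are those of RefSeq on GRCm38.p6, the same build as mm10, and exon overlaps those of GENCODE vM21. Alternatives were other scalings (DESeq2 size factors, library size, upper quartile), DESeq2 1.42.0, limma 3.58.1 on log2(TPM + 1) and log2(TPM + 0.1), no filter, at least 10 CPM in 3 libraries, a replicate block, a test against a fold change of 2, and each library left out. For ratios and shares they were FPKM, rounded counts and each library left out.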

Additional observations from a re-analysis of the deposited data

How the results depend on the processing

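Most values kept direction and call. Ccn1, not called in any setting, had a log2 fold change of 0.00395 without IL 3, and its range without 1 library was -0.0760 to 0.00395. The difference in Tead1 share was -0.11 percentage points without IL 1, in a range of -0.11 to 0.47. Against a fold change of 2, 0 of the 10 genes were higher and 2 lower, and of the further pathway genes 4 were higher and 10 lower. Past both cutoffs, 2 genes were higher without a filter, where Wwtr1 reached 1.00, and 1 to 2 with a library left out. There 1 gene was lower in place of 2 with limma on log2(TPM + 1), which gave Ccn2 -0.90, and with the filter of 10 CPM, which dropped Ccn2. The replicate block changed no call of the 10 genes (Yap1 -0.30 in that fit) and gave 9498 called genes in place of 9584. Same-numbered libraries deviated with correlations of -0.09, -0.02 and 0.03, which show no pairing by number. Squared differences between libraries of a group were 1.54 to 2.39 times sampling noise. Such noise weakens these correlations, so that they cannot exclude pairing. The scaling that moved the median of all genes most, upper quartile, put it at -0.05 in place of 0.00. The difference in Tead2 share, 1.16 percentage points in TPM, was 0.46 from rounded counts (exact permutation, adjusted p = 0.9) and 0.69 to 1.42 with a library left out, the lowest without IL 3. FPKM changed no direction of a ratio or share. Depth limits Ccn2 most, with 8 to 50 reads per library.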
